A study of Mus musculus with 24 samples.

Results

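Integrins are the receptors with which cells hold on to the extracellular matrix, and 10 genes that encode matrix-binding integrin chains were followed here through cultured mouse mammary tumor cells and the tumors those cells formed. The members were the 6 alpha chains Itga1, Itga2, Itga3, Itga5, Itga6 and Itgav and the 4 beta chains Itgb1, Itgb3, Itgb4 and Itgb5, taken by gene symbol from the Ensembl identifiers of the deposited tables. No filter on their values was set, but the members were chosen with earlier results of these data known. All 10 were listed in both tables, among 35275 genes in the table of cultured cells and 54532 in the table of tumors. Each integrin is a pair of one alpha and one beta chain. The chains Itga3 and Itga6 make laminin receptors, Itga1 and Itga2 collagen receptors, and Itga5 and Itgav receptors for fibronectin and other ligands with the RGD motif. Itgb1 is the shared partner of most alpha chains, Itgb3 and Itgb5 pair with Itgav, and Itgb4 pairs with Itga6 in the hemidesmosome, which anchors epithelial cells to the basement membrane.

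Bulk RNA-seq was available for 24 libraries in 6 groups. D2A1 and D2.1 are mammary tumor lines from the D2 hyperplastic nodules of BALB/c mice, of which D2A1 is known for rapid outgrowth and D2.1 for dormancy. Each line was sequenced in culture (n = 3) and as whole tumors grown in the mammary fat pad of female hosts 8 to 12 weeks of age, either immunocompetent BALB/c mice (n = 4 per line) or SCID-beige mice (n = 5 per line), and each tumor was collected when it reached a set size. SCID-beige mice carry the Prkdc scid and Lyst bg mutations, lack T and B cells and have impaired natural killer cells, but keep macrophages, vessels and stroma, and the labels name no treatment. Each tumor library came from an individual tumor. The labels give no time in the host. Because the lines differ in outgrowth and size was set, line and time in the host cannot be told apart in tumors. The D2.1 tumors sequenced had grown to that size, so they are not samples of dormant cells alone. Nothing states that the 3 cultures of a line were independent, so p-values measure the spread between these samples.

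Gene counts summed to 16837260 to 24818234 in the libraries of cultured cells and to 13566949 to 18355153 in those of tumors. Levels are given as CPM (the read count of a gene scaled to a common library total, after TMM normalization), and a floor of 3 counts was worth at most 0.178 CPM in cells and 0.221 CPM in tumors, for counting error only. Levels of different genes were compared as FPKM, which also divides by gene length. The deposited FPKM of the 2 tables rest on different gene lengths, with a median ratio of 1.45 between tables and, for Itgav, lengths of 7054 and 2405 bases. Thus, tests of FPKM shares stayed within a table, and FPKM shares and ranks of cultures and tumors stand side by side only as a description. CPM of the same gene was set side by side across tables that were normalized separately. A whole tumor holds host cells as well as tumor cells, and fewer cells of a type cannot be told apart from less RNA per cell. Of the defining markers of other tissues, skin keratinocyte transcripts reached 168 CPM and milk protein transcripts 391 CPM among the D2.1 tumors grown in BALB/c hosts (replicates 4 and 1), against at most 7.56 and 2.33 CPM in the other groups of tumors.

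The genes lie on 6 mouse chromosomes (GRCm38). The alpha chains are Itga1 (chr13:114953096-115101964) and Itga2 (chr13:114833081-114932100), which are neighbours in the same orientation, Itga3 (chr11:95044474-95076801), Itga5 (chr15:103344286-103366763), Itga6 (chr2:71745616-71858416) and Itgav (chr2:83724397-83806916). The beta chains are Itgb1 (chr8:128685654-128733200), Itgb3 (chr11:104608000-104670476), Itgb4 (chr11:115974709-116008412) and Itgb5 (chr16:33829665-33949338). In the GENCODE annotation, 3 members share exon bases with another annotated gene. These are Itga1 with Gm49395 on the same strand, and Itgav with Gm13684 and Itgb4 with B230344G16Rik on the opposite strand. The strand setting of the counting is not given in the sources used here, so reads on those shared bases cannot be told apart, although the partner genes had median counts of at most 9.5 in tumors.

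Promoter sequences are shown for Itga3, Itga5 and Itgb5, the 3 members with a window that passed the test between lines both in culture and in BALB/c tumors (given with their values later in the text), as the 250 bases before the start site in RefSeq (GRCm38.p6). Of the 10 members, 7 matched the table of promoters, and 1 of them, Itga3, had a pair of start sites there, of which the one farther upstream is shown. Capitals mark matches, on either strand, to GGGCGG (the GC box), CACCTG (an E-box bound by Snail and Zeb factors), TGANTCA (the AP-1 motif) or TATAAA (the TATA box). The windows are chr11:95076715-95076964 on the minus strand for Itga3, chr15:103366792-103367041 on the minus strand for Itga5 and chr16:33829415-33829664 on the plus strand for Itgb5, each written 5′ to 3′.
Itga3: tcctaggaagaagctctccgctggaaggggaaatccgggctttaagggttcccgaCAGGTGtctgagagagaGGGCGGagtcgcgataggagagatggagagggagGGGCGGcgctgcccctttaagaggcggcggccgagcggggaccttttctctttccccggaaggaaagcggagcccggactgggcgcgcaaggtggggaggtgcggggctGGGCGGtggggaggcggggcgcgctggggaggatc
Itga5: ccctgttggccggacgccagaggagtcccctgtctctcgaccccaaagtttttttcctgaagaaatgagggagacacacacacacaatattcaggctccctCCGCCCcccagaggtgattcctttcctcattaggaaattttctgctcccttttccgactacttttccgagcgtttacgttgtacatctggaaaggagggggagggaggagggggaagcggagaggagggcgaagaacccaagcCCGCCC
Itgb5: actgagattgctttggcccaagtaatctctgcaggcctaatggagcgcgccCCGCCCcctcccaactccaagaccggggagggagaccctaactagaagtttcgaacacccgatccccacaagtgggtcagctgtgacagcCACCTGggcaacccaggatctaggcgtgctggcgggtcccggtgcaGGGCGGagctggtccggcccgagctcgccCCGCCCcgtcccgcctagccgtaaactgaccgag
The Itga3 and Itgb5 windows each held 3 GC boxes and 1 CACCTG, and the Itga5 window held 2 GC boxes. Among 32851 promoter windows of the same length, 32.7% held a GC box, 17.2% CACCTG, 6.75% TGANTCA and 12.4% TATAAA. The GC content of the 3 windows was 67.6%, 55.6% and 65.2%, beside a median of 52.4% over all windows. No matches overlapped in the windows shown, and these matches are letters in a window and no measure of binding.

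The first question was how the 2 lines differed in their integrins in culture and whether the difference was the same in tumors. In culture, D2.1 cells held more Itgb3, Itgb4, Itga5 and Itgb5 RNA and less Itga3 and Itga6 than D2A1 cells. In tumors, the largest difference was in Itga3, which was 6.69-fold lower in D2.1 than in D2A1 tumors of BALB/c mice and 5.73-fold lower in SCID-beige mice, and Itgb1 and Itgb5 were also lower in D2.1 tumors of both hosts. Itgb5 thus went from higher in D2.1 cells to lower in D2.1 tumors. By edgeR's quasi-likelihood test with Benjamini-Hochberg adjustment over all genes tested, 6 of the 9 members that passed the expression filter in culture had an adjusted p under 0.05, where 44.9% of 12489 genes did. Of those, 4 were higher and 2 lower in D2.1 cells, where 24.2% and 20.7% of all genes were. In BALB/c tumors, 4 of 10 members passed (1 higher and 3 lower in D2.1), where 32.6% of 14953 genes did (16.8% higher and 15.8% lower). In SCID-beige tumors, 6 of 10 passed (2 higher and 4 lower), where 32.1% of 14355 genes did (17.2% higher and 14.8% lower). The median log2 fold change of the members was 0.06 in culture, -0.40 in BALB/c and -0.64 in SCID-beige tumors, beside -0.02, -0.02 and 0.02 over all genes tested.

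**Figure D1:**
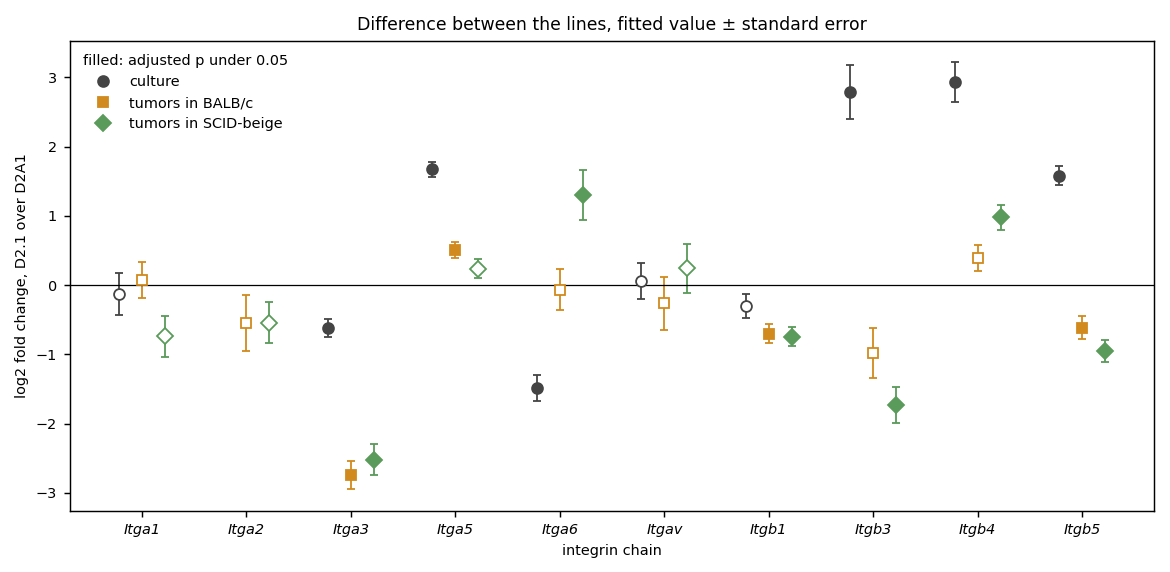
Fitted log2 fold change of D2.1 over D2A1 for each integrin chain (x axis) in culture (circles, 3 against 3 libraries), in tumors of BALB/c mice (squares, 4 against 4) and of SCID-beige mice (diamonds, 5 against 5), with bars for the standard error and filled symbols for an adjusted p under 0.05. Itgb3 and Itgb5 sit above 0 in culture and below 0 in tumors, and Itga3 is below 0 in all 3 settings; Itga2 was not tested in culture.

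**Figure D2:**
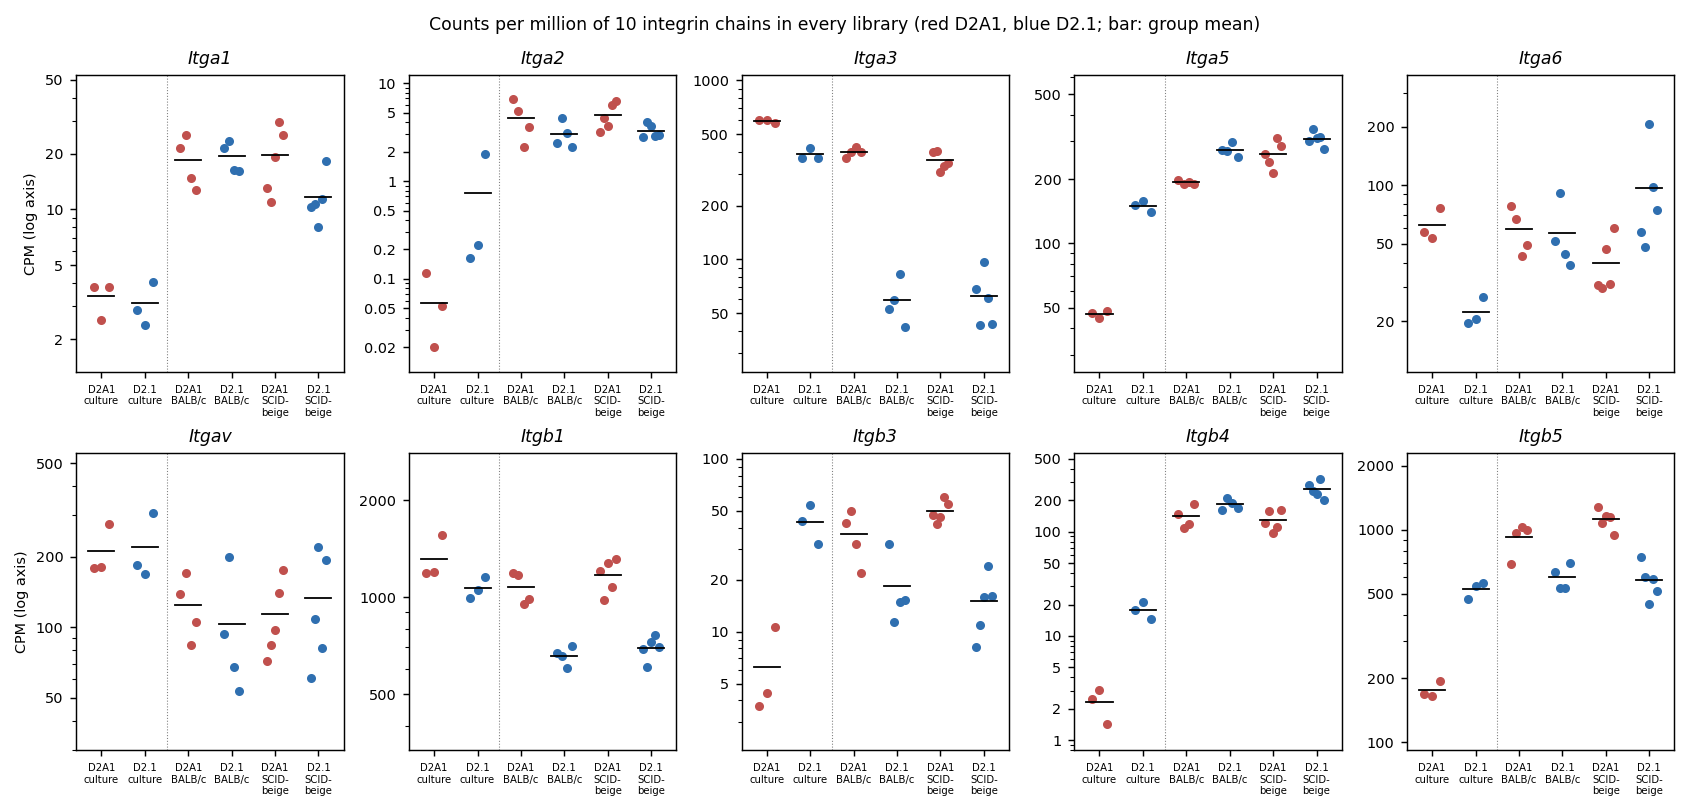
CPM of each chain in every library (log axis, a separate scale for each panel), with D2A1 in red, D2.1 in blue and a bar at each group mean; the dotted line separates cultured cells from tumors, which were normalized separately. The library of cultured D2A1 cells without an Itga2 read is drawn at 0.02 CPM.

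Itga3 is the alpha chain of a laminin receptor of epithelial basement membranes, and it set the lines apart most widely in tumors. In culture, it stood at 599, 598 and 575 CPM in the 3 D2A1 libraries and at 368, 420.3 and 369 CPM in the 3 D2.1 libraries. In BALB/c mice, the 4 D2A1 tumors held 367, 399.9, 425 and 398 CPM, whereas the 4 D2.1 tumors held 52.9, 59.0, 82.7 and 42.2 CPM. In SCID-beige mice, the 5 D2A1 tumors held 400.2, 401, 308, 332 and 346 CPM and the 5 D2.1 tumors 68.0, 43.0, 96.1, 60.5 and 43.6 CPM. The groups did not overlap in any of the 3 settings, and D2.1 was the lower each time. The difference was 1.53-fold in culture (log2 fold change -0.61, SE 0.13, adjusted p = 0.00435), where it fell short of the threshold once the GC slope of each library was a covariate (log2 fold change -0.64, adjusted p = 0.0879). It passed in BALB/c tumors (log2 fold change -2.74, SE 0.20, adjusted p = 7.17e-06) and in SCID-beige tumors (log2 fold change -2.52, SE 0.22, adjusted p = 1.97e-06), and under every alternative run there. Compared with the cultured cells, the mean CPM of D2.1 tumors was lower by a factor of 6.52 in BALB/c and 6.2 in SCID-beige mice, and that of D2A1 tumors by 1.49 and 1.65, values set side by side across separately normalized tables.

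Itga6, the other laminin-binding alpha chain, was ordered the other way round in tumors of SCID-beige mice than in culture. Cultured D2A1 cells held 57.3, 53.6 and 76.0 CPM and cultured D2.1 cells 19.6, 20.6 and 26.6 CPM, without overlap. The 5 D2A1 tumors in SCID-beige mice held 30.8, 29.5, 47.1, 30.9 and 59.9 CPM and the 5 D2.1 tumors 57.5, 48.0, 207, 98.3 and 74.4 CPM, so that the groups overlapped and 1 D2.1 tumor (replicate 3) stood above the rest. In BALB/c mice, the D2A1 tumors held 77.9, 67.2, 43.0 and 49.0 CPM and the D2.1 tumors 51.9, 91.1, 44.5 and 38.7 CPM, ranges that lay over each other. Itga6 was lower in cultured D2.1 cells (log2 fold change -1.49, SE 0.18, adjusted p = 0.000278) and higher in D2.1 tumors of SCID-beige mice (log2 fold change 1.30, SE 0.37, adjusted p = 0.0146), although the latter missed the threshold without a filter on low counts (adjusted p = 0.0646). In BALB/c tumors its log2 fold change was -0.06 (SE 0.29, adjusted p = 0.894).

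Itgb4, the partner of Itga6 in hemidesmosomes, was low in cultured cells, above all in D2A1, and higher in every tumor. Its CPM was 2.48, 3.06 and 1.44 in D2A1 cells and 17.6, 21 and 14.5 in D2.1 cells, a 7.62-fold difference without overlap (log2 fold change 2.93, SE 0.29, adjusted p = 7.52e-05). Tumors held 149, 108, 119 and 184 CPM (D2A1 in BALB/c), 162, 212.1, 189 and 169.8 CPM (D2.1 in BALB/c), 121, 159, 96.2, 110.2 and 160.4 CPM (D2A1 in SCID-beige) and 279, 246, 230.3, 317 and 201 CPM (D2.1 in SCID-beige). The lowest tumor thus stood above the highest culture, and the mean CPM of BALB/c tumors was 60.2 times that of the cultured cells for D2A1 and 10.3 times for D2.1. D2.1 tumors held more than D2A1 tumors in SCID-beige mice, without overlap (log2 fold change 0.98, SE 0.18, adjusted p = 0.000834). In BALB/c mice the groups overlapped (log2 fold change 0.39, SE 0.19, adjusted p = 0.132), and the adjusted p was 0.049 without D2A1 replicate 4. In reads, the ratio of Itgb4 to Itga6 was 0.0398 ± 0.0194 (SD, n = 3) in cultured D2A1 cells, 0.821 ± 0.248 (SD, n = 3) in cultured D2.1 cells and 1.12 to 5.39 over the 18 tumors.

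Of the collagen receptors, Itga1 was low in culture and Itga2 close to absent. Itga1 ranged from 2.39 to 4.07 CPM over the 6 cultures and from 8.0 to 29.7 CPM over the 18 tumors, so that every tumor stood above every culture. The lines did not differ past the threshold in culture (log2 fold change -0.13, SE 0.30, adjusted p = 0.759), in BALB/c (log2 fold change 0.07, SE 0.25, adjusted p = 0.852) or in SCID-beige tumors (log2 fold change -0.74, SE 0.30, adjusted p = 0.0755). In SCID-beige mice, the D2A1 tumors held 13.1, 11, 19.1, 29.7 and 25.1 CPM and the D2.1 tumors 10.3, 10.7, 8.0, 11.3 and 18.2 CPM, and Itga1 did pass under 7 of the 17 alternatives, with an adjusted p of 0.0207 with the GC slope as a covariate. Itga2 had 2, 0 and 1 reads in the D2A1 cultures and 3, 5 and 35 in the D2.1 cultures, did not pass the filter there, and ranged from 2.23 to 6.84 CPM in tumors. Without a filter on low counts the culture difference passed (log2 fold change 3.59, adjusted p = 0.031), a value that depends on the prior count at such low reads. Its log2 fold change between tumors of the lines was -0.54 in BALB/c (adjusted p = 0.337) and -0.54 in SCID-beige mice (adjusted p = 0.184).

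Itga5, the alpha chain of the fibronectin receptor, was higher in D2.1 in culture and, by a smaller margin, in BALB/c tumors. The D2A1 cultures held 47.4, 44.9 and 48.3 CPM and the D2.1 cultures 151, 157 and 140.3 CPM. In BALB/c mice, D2A1 tumors held 197, 189.5, 194 and 191 CPM and D2.1 tumors 273, 269, 297 and 255 CPM. The groups were separate in both settings, by 3.19-fold in culture (log2 fold change 1.67, SE 0.11, adjusted p = 7e-06) and 1.43-fold in BALB/c tumors (log2 fold change 0.51, SE 0.12, adjusted p = 0.00676). With the replicate number as a block and the GC slope together, a fit in which 538 genes passed instead of 4868, the BALB/c difference of Itga5 missed the threshold (log2 fold change 0.53, adjusted p = 0.563). That fit has few more libraries than terms, which leaves little to estimate the spread from, for every member. In SCID-beige mice, D2A1 tumors held 262, 240.3, 213.9, 311 and 285 CPM and D2.1 tumors 302, 343, 312, 314 and 277 CPM, which overlapped (log2 fold change 0.24, SE 0.14, adjusted p = 0.205).

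Itgav, which pairs with Itgb1, Itgb3 and Itgb5, did not separate the lines. It stood at 178, 180.1 and 277 CPM in D2A1 and 184, 169.5 and 308 CPM in D2.1 cultures, where replicate 3 was the highest of each line. The D2.1 tumors of BALB/c mice held 93.2, 199, 67.5 and 53.7 CPM and those of SCID-beige mice 60.6, 108, 221, 81.5 and 194 CPM. The D2A1 tumors held 139, 171, 83.9 and 105 CPM in BALB/c and 71.6, 83.9, 97.4, 140.4 and 175 CPM in SCID-beige mice. The lines overlapped in each setting, and the log2 fold change between lines was 0.06 in culture, -0.26 in BALB/c and 0.24 in SCID-beige tumors, with adjusted p of 0.872, 0.639 and 0.639. Without D2.1 replicate 2, the highest of its group, the BALB/c difference passed the threshold (log2 fold change -0.80, adjusted p = 0.0432).

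Itgb1, the shared beta chain, was lower in D2.1 tumors of both hosts. Cultured D2A1 cells held 1191, 1197 and 1561 CPM and D2.1 cells 998, 1051 and 1154 CPM, which did not overlap but did not pass the threshold (log2 fold change -0.30, SE 0.17, adjusted p = 0.182). With the replicate number as a block, which takes same-numbered cultures as pairs, the culture difference did pass (log2 fold change -0.29, adjusted p = 0.0181). In that fit, 7539 of 12489 genes passed instead of 5602. D2A1 tumors held 1194, 1169.7, 956 and 985 CPM in BALB/c and 1207, 983, 1279, 1078 and 1318 CPM in SCID-beige mice. D2.1 tumors held 672, 656, 602 and 705 CPM and 691, 609, 725, 762 and 702 CPM, all below every D2A1 tumor. The difference was 1.63-fold in BALB/c (log2 fold change -0.70, SE 0.14, adjusted p = 0.00325) and 1.68-fold in SCID-beige tumors (log2 fold change -0.75, SE 0.14, adjusted p = 0.00108). The block and GC slope together gave a larger BALB/c difference that missed the threshold (log2 fold change -0.90, adjusted p = 0.365).

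Itgb5, a beta chain of vitronectin receptors, changed its order between culture and tumor. Cultured D2A1 cells held 168, 165 and 194 CPM and D2.1 cells 472, 543 and 566 CPM, a 2.99-fold difference without overlap (log2 fold change 1.58, SE 0.14, adjusted p = 3.26e-05). In SCID-beige mice, D2A1 tumors held 1281, 1075, 1158, 1146 and 950.2 CPM and D2.1 tumors 743, 603, 448, 588 and 515 CPM, now with D2.1 the lower and without overlap (log2 fold change -0.96, SE 0.16, adjusted p = 0.000436). The D2A1 tumors of BALB/c mice held 693, 965, 1030.0 and 1000.3 CPM and D2.1 tumors 633, 536, 535 and 700.4 CPM, where the lowest D2A1 tumor (replicate 1) lay just under the highest D2.1 tumor (log2 fold change -0.61, SE 0.17, adjusted p = 0.0181). Leaving out D2.1 replicate 3 or D2A1 replicate 4 moved that adjusted p to 0.057 or 0.054, and the block and GC slope together gave a larger difference that missed the threshold (log2 fold change -1.15, adjusted p = 0.303). From culture to tumor, the mean CPM of D2A1 was 5.24 times higher in BALB/c and 6.38 times higher in SCID-beige mice, whereas that of D2.1 stood at 1.14 and 1.10 times its culture level.

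Itgb3, a beta chain found in vessels and platelets, showed the same change of order at a lower level. It stood at 3.69, 4.42 and 10.6 CPM in cultured D2A1 cells and 43.7, 54.0 and 32.3 CPM in cultured D2.1 cells (log2 fold change 2.79, SE 0.39, adjusted p = 0.000532). In SCID-beige mice, D2A1 tumors held 47.6, 42.1, 46.1, 60.2 and 54.6 CPM and D2.1 tumors 8.10, 11, 15.8, 24.1 and 16.1 CPM, again separate but with D2.1 the lower (log2 fold change -1.73, SE 0.26, adjusted p = 0.000199). The D2A1 tumors of BALB/c mice held 42.6, 49.7, 32.1 and 21.8 CPM and D2.1 tumors 32.3, 11.4, 14.9 and 15.1 CPM, with D2.1 replicate 1 inside the D2A1 range (log2 fold change -0.98, SE 0.36, adjusted p = 0.0578). The BALB/c difference passed under 8 of the 17 alternatives. It did so with the replicate number as a block, which takes same-numbered tumors as pairs (log2 fold change -1.02, adjusted p = 0.0156), and with the block and GC slope together (log2 fold change -3.14, adjusted p = 0.0152). The latter fit has few more libraries than terms, and its estimate lay far from that of the main fit. With the block alone, 7116 of 14953 genes passed instead of 4868. With DESeq2, with no filter on low counts and with one fit of all tumors, the adjusted p was 0.0287, 0.0443 and 0.0288. Itgb3 also passed without D2.1 replicate 1 (log2 fold change -1.40, adjusted p = 0.00804), without D2A1 replicate 4 (adjusted p = 0.0413) and without both tumors with skin or milk transcripts, D2.1 replicates 1 and 4 (log2 fold change -1.48, adjusted p = 0.0187).

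The change of the line difference between culture and tumor was tested itself, in one fit of both tables over the genes they share, in which the gene length of a table cancels. Relative to culture, the log2 difference of D2.1 over D2A1 was lower for Itga2, Itga3, Itga5, Itgb3, Itgb4 and Itgb5 in both hosts, and higher for Itga6. In SCID-beige tumors against culture, 7 of 10 members had an adjusted p under 0.05 (1 higher and 6 lower), where 12.8% of 15077 genes did (4.62% higher and 8.18% lower). In BALB/c tumors against culture, 7 of 10 members did (1 higher and 6 lower), where 14.4% of 15222 genes did (5.48% higher and 8.9% lower). Both contrasts share the cultured libraries. Itgb3 changed by a log2 difference of -4.52 (SE 0.50, adjusted p = 5.55e-06) for SCID-beige and -3.72 (SE 0.59, adjusted p = 0.000445) for BALB/c tumors. Itgb5 changed by -2.52 (SE 0.23) and -2.17 (SE 0.24), with adjusted p of 7.72e-07 and 1.55e-05. For Itgb4 the values were -1.93 and -2.52, for Itga3 -1.89 and -2.10, and for Itga5 -1.42 and -1.14, with adjusted p of at most 0.00048 among the 6.

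Itga6 moved in favour of D2.1, by 2.79 (SE 0.53, adjusted p = 0.00144) in SCID-beige and 1.45 (SE 0.39, adjusted p = 0.0198) in BALB/c tumors. The BALB/c value missed the threshold without D2A1 culture replicate 3, D2.1 culture replicate 1 or D2.1 culture replicate 2 (adjusted p of 0.0589 to 0.0738). Itga2 passed with -4.12 (SE 1.05, adjusted p = 0.0129) and -4.10 (SE 1.20, adjusted p = 0.0323), values that depend on the prior count at culture levels at or near the floor. Without the 1 D2.1 culture that held 35 reads (replicate 3), they became -2.21 (adjusted p = 0.112) and -2.19 (adjusted p = 0.18), and in BALB/c tumors it also missed the threshold without D2.1 tumor replicate 1, D2A1 tumor replicate 1 or any 1 of the 3 D2A1 cultures (adjusted p of 0.0509 to 0.096) and without both tumors with skin or milk transcripts (adjusted p = 0.0882). With the replicate block its BALB/c adjusted p was 0.0638. The log2 difference of Itga1 was -0.61 and 0.24, of Itgav 0.18 and -0.30 and of Itgb1 -0.43 and -0.37, with adjusted p of at least 0.213.

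Composition gives a second view that does not depend on scaling between libraries, since each chain is taken as a share of the summed FPKM of the 6 alpha or 4 beta chains in the same library. Among alpha chains, Itga3 led in cultured cells of both lines and Itga5 in D2.1 tumors. The Itga3 share was 68.7% ± 4.68 (SD, n = 3) in cultured D2A1 and 52.8% ± 4.68 (SD, n = 3) in cultured D2.1 cells. In BALB/c mice it was 47.5% ± 4.85 in D2A1 and 10.6% ± 2.92 in D2.1 tumors (SD, n = 4), and in SCID-beige mice 42.8% ± 6.28 and 9.11% ± 2.41 (SD, n = 5). The Itga5 share was 6.04% ± 0.176 and 22.7% ± 2.27 in culture, 25.6% ± 1.64 and 55.3% ± 9.35 in BALB/c tumors, and 34.5% ± 2.47 and 52.0% ± 10.9 in SCID-beige tumors, in the same order of lines. Itga5 was thus the largest alpha-chain share in the mean of both groups of D2.1 tumors.

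Among beta chains, Itgb1 dominated in culture, whereas Itgb5 and Itgb1 were close in tumors. Itgb1 held 85.5% ± 0.740 (SD, n = 3) of the beta-chain FPKM in cultured D2A1 and 60.8% ± 1.21 (SD, n = 3) in cultured D2.1 cells, and Itgb5 14.2% ± 0.816 and 37.0% ± 0.973. Over the 18 tumors, the Itgb1 share ran from 36.7% to 52.8% and the Itgb5 share from 42.8% to 58.6%. The Itgb4 share was 2.84% ± 0.754 in D2A1 and 5.72% ± 1.11 in D2.1 tumors grown in BALB/c mice (SD, n = 4), and 2.29% ± 0.635 and 7.64% ± 0.870 in SCID-beige mice (SD, n = 5), without overlap in either host.

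By 2-sided exact permutation tests over libraries, with Benjamini-Hochberg adjustment over 50 tests, no share passed an adjusted p of 0.05, although 12 had an unadjusted p under 0.05 and 18 reached the smallest p their comparison allows. In SCID-beige tumors that smallest p is 0.00794, and Itga3, Itga6, Itgb3 and Itgb4 reached it (adjusted p = 0.0992 each). In BALB/c tumors it is 0.0286, reached by Itga1, Itga3, Itga5 and Itgb4 (adjusted p = 0.13 each by the exact permutation test). In culture, 3 libraries against 3 cannot go below an exact p of 0.1, which 8 of the 10 chains reached. In the edgeR test of counts there, 44.9% of all genes passed. The shares of a library add up to the whole within the alpha or beta chains, so a higher share of 1 chain lowers others and these tests are not independent. The shares of cultured cells and tumors rest on different gene lengths and were not tested against each other. Within each table, with the lengths of the other table, as with reads or all measured integrin chains in the denominator, the number of shares past the threshold was also 0.

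**Figure D3:**
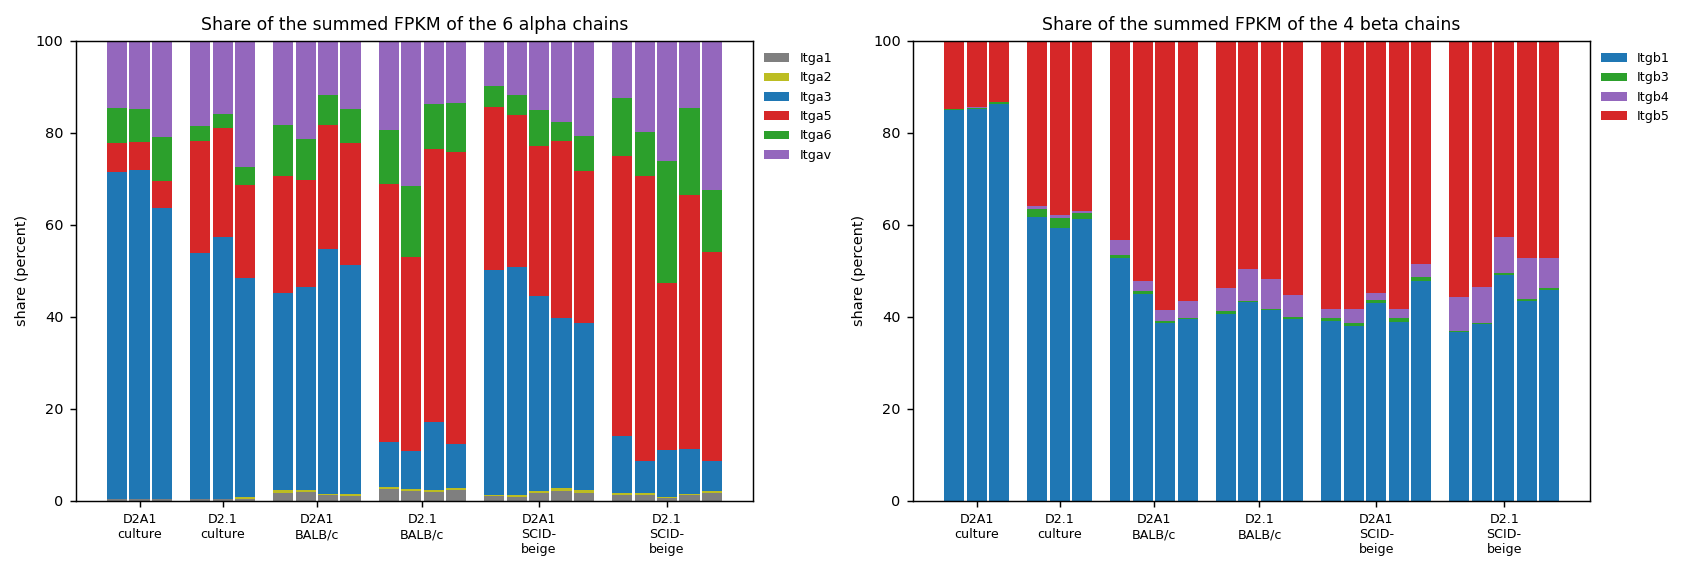
Share of each member in the summed FPKM of the 6 alpha chains (left) and of the 4 beta chains (right), in percent, with a stacked bar for each library, grouped by line and setting. Itga3 (blue, left) takes most of the bar in cultured D2A1 cells and a mean of 10.6% and 9.11% in D2.1 tumors of BALB/c and SCID-beige mice, where Itga5 (red, left) is the largest part. Itgb5 is red on the right. Bars of cultures and tumors rest on different gene lengths.

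Ranked by FPKM within a group, Itgb1 stood first in both cultures, at 362 ± 71.2 FPKM (SD, n = 3) in D2A1 and 269 ± 35.1 FPKM (SD, n = 3) in D2.1 cells. Itgb5 stood first in every group of tumors, from 393 ± 66.4 FPKM (SD, n = 5) in D2.1 tumors of SCID-beige mice to 792 ± 90.3 FPKM (SD, n = 5) in D2A1 tumors of the same host. Its range overlapped that of Itgb1, the next in order, among D2A1 tumors with BALB/c hosts and among D2.1 tumors with SCID-beige hosts. In reads, the mean ratio of Itgb5 to Itgb1 was 0.875 (D2A1) and 0.910 (D2.1) with BALB/c hosts. With SCID-beige hosts it was 0.969 (D2A1) and 0.838 (D2.1), and the highest single tumor had 1.09. The first rank of Itgb5 thus rested on division by gene length, 1432 bases for Itgb5 and 2020 for Itgb1. The third rank went to Itga3 in cultured D2.1 cells and both groups of D2A1 tumors, to Itgb5 in cultured D2A1 cells, and to Itga5 in both groups of D2.1 tumors, at 110.5 ± 9.05 FPKM (SD, n = 4) in BALB/c and 123 ± 9.26 FPKM (SD, n = 5) in SCID-beige mice. Itgb4, Itgav and Itga6 followed in D2.1 tumors, with ranges that overlapped from each to the next, and Itga3 came after them at 21.6 ± 6.45 FPKM (SD, n = 4) and 22.4 ± 8.31 FPKM (SD, n = 5). Itgb3 and Itga1 stood at no more than 12.5 and 7.51 FPKM in any tumor. Itga2 was last in all 6 groups, at no more than 1.95 FPKM.

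The second question was whether the host, with or without adaptive immunity, changed the integrins of a tumor. No member had an adjusted p under 0.05 between BALB/c and SCID-beige mice, in D2.1 tumors, where 0.891% of 14929 genes did (0.871% higher and 0.0201% lower in BALB/c mice), or in D2A1 tumors, where 1.17% of 14572 genes did (0.906% higher and 0.261% lower), by edgeR's quasi-likelihood test. An unadjusted p under 0.05 was reached by 1489 genes in D2.1 and 1472 in D2A1 tumors, with 2 members in each line. In D2.1 tumors these were Itga1, with 21.5, 23.5, 16.3 and 16.2 CPM in BALB/c and 10.3, 10.7, 8.0, 11.3 and 18.2 CPM in SCID-beige mice (log2 fold change 0.76, SE 0.26, adjusted p = 0.266), and Itgb4 (log2 fold change -0.45, SE 0.17, adjusted p = 0.328). In D2A1 tumors they were Itga5, whose groups did not overlap (log2 fold change -0.44, SE 0.13, adjusted p = 0.175), and Itga6 (log2 fold change 0.58, SE 0.25, adjusted p = 0.456). DESeq2 called 0 members in D2.1 tumors and 1 in D2A1 tumors, which was Itga5 (log2 fold change -0.47, adjusted p = 0.019). The log2 fold changes of all 10 members lay between -0.74 and 0.76 in D2.1 tumors and between -0.46 and 0.58 in D2A1 tumors, and a missed threshold does not show that hosts were alike.

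The dependence of the line difference on the host was tested as an interaction over the 18 tumors. No member passed, where 0.0187% of 16036 genes did. An unadjusted p under 0.05 was reached by 1355 genes, among them the members Itga6 (log2 difference -1.36, SE 0.52, unadjusted p = 0.017, adjusted p = 0.485 by edgeR) and Itgb4 (log2 difference -0.59, SE 0.26, unadjusted p = 0.0365, adjusted p = 0.547 by edgeR). The log2 difference of D2.1 over D2A1 was 1.30 in SCID-beige and -0.06 in BALB/c mice for Itga6, and 0.98 and 0.39 for Itgb4. DESeq2 called 0 members there, and no alternative took either past the threshold. The Itga6 and Itgb4 differences that passed in SCID-beige and not in BALB/c tumors were therefore not shown to differ between hosts.

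Integrins work with ligands outside the cell and adaptors inside it, and lists of these were counted beside the members. Of all genes tested, 24.2% were higher and 20.7% lower past the threshold in cultured D2.1 cells. The shares were 16.8% and 15.8% in BALB/c tumors and 17.2% and 14.8% in SCID-beige tumors, and each list count below is to be read beside them. The collagen ligand chains favoured D2.1 in culture, with 7 of 9 tested higher and 2 lower (median log2 fold change 4.66, beside -0.02 over all genes). In BALB/c tumors 5 of 10 were higher and 2 lower (median 1.25), and in SCID-beige tumors 5 and 3 (median 0.77). Col6a1, a chain of the microfibrillar collagen VI, was higher in D2.1 in culture (log2 fold change 7.09, SE 0.18, adjusted p = 3.81e-07), in BALB/c (log2 fold change 3.01, SE 0.15, adjusted p = 6.8e-07) and in SCID-beige tumors (log2 fold change 2.07, SE 0.16, adjusted p = 7.94e-07). Col1a1 and Col3a1, of the fibrillar collagens, were higher by 2.17 and 2.91 on the log2 scale in BALB/c tumors (adjusted p = 9.54e-05 and 6.9e-06) and by 1.65 and 2.80 in SCID-beige tumors (adjusted p = 0.000308 and 2.97e-05).

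Of the laminin ligand chains, 4 of 8 were higher and 1 lower in cultured D2.1 cells, 2 and 2 of 11 in BALB/c tumors, and 1 and 3 of 10 in SCID-beige tumors (medians 0.72, 0.04 and -0.75). Lama5, the alpha chain of the laminins that Itga3 and Itga6 receptors bind, was lower in D2.1 tumors of BALB/c (log2 fold change -2.28, SE 0.19, adjusted p = 1.57e-05) and SCID-beige mice (log2 fold change -2.05, SE 0.25, adjusted p = 3.42e-05), as Itga3 was, with a log2 fold change of -0.23 in culture (adjusted p = 0.263). Lamb1 and Lamc1 had log2 fold changes of 0.20 and -0.20 in BALB/c tumors (adjusted p = 0.388 and 0.573).

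Of the RGD ligands, 6 of 11 were higher and 1 lower in cultured D2.1 cells (median 1.02), whereas 2 were higher and 5 lower of 12 in BALB/c tumors (median -0.26) and 2 and 5 of 11 in SCID-beige tumors (median -0.59). Spp1, osteopontin, a ligand of Itgav receptors, was higher in cultured D2.1 cells (log2 fold change 3.64, SE 0.29, adjusted p = 1.98e-05) and lower in D2.1 tumors grown in BALB/c mice (log2 fold change -1.60, SE 0.21, adjusted p = 0.000251), the same turn as Itgb5. In SCID-beige tumors its log2 fold change was -0.59 (adjusted p = 0.109). Fn1, fibronectin, was higher in cultured D2.1 cells (log2 fold change 2.14, SE 0.35, adjusted p = 0.00122), with 0.54 in BALB/c and 0.14 in SCID-beige tumors (adjusted p = 0.142 and 0.774). Mfge8, an RGD protein of milk fat globules, had values of 0.09, -0.06 and -0.42 in the 3 settings, none past the threshold. In the test of the change from culture, 9 of 11 RGD ligands, 7 of 10 collagen chains and 6 of 11 laminin chains had a lower difference in SCID-beige tumors than in culture, and 8, 6 and 4 of 12, 10 and 11 in BALB/c tumors, with 2 collagen chains higher in each host and 1 laminin chain higher in BALB/c tumors. Of all genes, 8.18% were lower and 4.62% higher in SCID-beige tumors, and 8.9% and 5.48% in BALB/c tumors.

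Among the other matrix-binding integrin chains, 5 of 7 were higher and 0 lower in cultured D2.1 cells, 4 and 1 of 8 in BALB/c tumors, and 5 and 1 of 8 in SCID-beige tumors. Itga7, a further laminin-binding alpha chain, was higher in D2.1 in culture (log2 fold change 4.0, SE 0.22, adjusted p = 2.65e-06), in BALB/c (log2 fold change 3.02, SE 0.17, adjusted p = 1.02e-06) and in SCID-beige tumors (log2 fold change 3.06, SE 0.18, adjusted p = 5.35e-08), opposite to Itga3. Itga2b, the alpha chain of platelets, was higher by 1.38, 1.79 and 1.31 on the log2 scale (adjusted p = 0.0102, 0.000431 and 0.000963), and Itga9 had values of -1.14, 0.16 and 0.32, none past the threshold. The leukocyte integrin chains counted 2 higher and 1 lower of 6 in BALB/c tumors and 2 higher of 6 in SCID-beige tumors, and were higher in BALB/c than in SCID-beige mice for 3 of 6 in D2.1 and 2 of 6 in D2A1 tumors. Of all genes, 0.871% in D2.1 and 0.906% in D2A1 tumors were higher in BALB/c mice.

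Inside the cell, activators, inhibitors and adaptors of integrins counted 6 higher and 2 lower of 13 in cultured D2.1 cells, 4 and 1 of 15 in BALB/c tumors, and 3 and 2 of 15 in SCID-beige tumors. In tumors these counts lay near the share of all genes that passed, 32.6% in BALB/c and 32.1% in SCID-beige mice. Tln1, talin, which links the beta tail to actin, had log2 fold changes of 0.24, -0.07 and -0.14, none past the threshold. Fermt2, kindlin-2, was higher in D2.1 tumors by 0.64 in BALB/c and 0.67 in SCID-beige mice (adjusted p = 0.00977 and 0.00744), and Parva, an actin-binding partner of the integrin-linked kinase, by 0.78, 0.65 and 0.60 in the 3 settings (adjusted p = 0.000817, 0.00321 and 0.00668).

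Focal adhesion kinases and scaffolds counted 8 higher and 1 lower of 17 in culture, 6 and 1 of 18 in BALB/c tumors, and 4 and 5 in SCID-beige tumors. Cav1, caveolin-1, was higher in D2.1 by 1.92, 1.16 and 1.49 on the log2 scale (adjusted p = 6.08e-05, 0.00366 and 0.001). Flna, filamin A, was lower in D2.1 tumors of BALB/c (log2 fold change -0.69, SE 0.15, adjusted p = 0.00503) and SCID-beige mice (log2 fold change -0.70, SE 0.13, adjusted p = 0.000929), and Actn1, an alpha-actinin, had values of 0.09, -0.22 and -0.35, none past the threshold. Hemidesmosome and tetraspanin partners counted 4 higher and 1 lower of 6 in culture and 4 higher of 7 in tumors of each host. Of the tetraspanins, Cd81 was higher in D2.1 tumors by 0.88 and 0.69 (adjusted p = 0.000792 and 0.00691), Cd9 was higher in culture by 1.15 and had 0.28 and 0.50 in tumors (adjusted p = 0.000995, 0.41 and 0.0299), and Cd151, a partner of Itga3 and Itga6 receptors, was higher in cultured D2.1 cells by 0.31 (adjusted p = 0.0491) and had -0.04 and -0.36 in tumors, neither past the threshold.

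Host cells also carry integrins, and among the lists of their markers only the endothelial one separated the lines in both hosts. The summed CPM of 8 endothelial markers was 253 to 339 in D2A1 tumors and 71.5 to 163 in D2.1 tumors, without overlap, and at most 0.870 in cultures. Of these markers, 6 of 8 were lower in D2.1 tumors of BALB/c and 7 of 8 in SCID-beige mice, for example Cdh5 (-1.59 and -2.01 on the log2 scale, adjusted p = 0.000706 and 2.2e-05). Among members past the threshold, Itga3, Itgb1 and Itgb5 were lower in D2.1 tumors of both hosts, and Itgb3 in SCID-beige mice. Itga5 in BALB/c mice and Itga6 and Itgb4 in SCID-beige mice were higher. Mural cell and fibroblast markers summed to 356 to 796 CPM in D2A1 and 737 to 1675 CPM in D2.1 tumors, with 4 of 8 higher and 1 lower in D2.1 tumors grown in BALB/c mice and 3 and 3 in SCID-beige mice, but cultured cells also held 39.4 to 182 CPM. Their part in the integrin differences was not tested. In culture, where endothelial markers were at or near 0, Itga3, Itgb1, Itgb5, Itgav, Itga5 and Itga6 stood at 19.6 CPM or more in every library. Itga1, Itga2, Itgb3 and Itgb4 stood below that in every D2A1 culture. Levels in culture do not tell which cells carried these RNAs in tumors.

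Leukocyte and macrophage markers summed to 484 to 707 CPM in D2A1 and 619.5 to 794 CPM in D2.1 tumors grown in BALB/c mice, and to 313 to 369 and 363 to 772 CPM in SCID-beige mice. Platelet and megakaryocyte markers, of interest for Itgb3, ranged from 5.30 to 20.7 CPM in tumors and had 0 of the 2 tested past the threshold between lines in either host. Adipocyte markers reached 523 CPM and skeletal muscle markers 342 CPM in D2.1 replicate 1 of BALB/c mice, which is also the tumor with milk protein transcripts. As a check of the labelled cell type, mammary epithelial markers summed to 131 to 339 CPM in cultured D2A1 and 2339.9 to 4640.5 CPM in cultured D2.1 cells. In BALB/c mice they summed to 513 to 599 CPM in D2A1 and 334 to 539 CPM in D2.1 tumors. In SCID-beige mice the sums were 443 to 880 CPM in D2A1 and 310.4 to 1151 CPM in D2.1 tumors. The list counted 3 higher and 1 lower of 4 tested in cultured D2.1 cells. It counted 2 and 1 of 8 in BALB/c and 2 and 1 of 4 in SCID-beige tumors. Of these, Krt8 was higher in D2.1 in all 3 settings (log2 fold changes 4.69, 0.90 and 1.12), and Krt18 was higher in culture and lower in tumors (2.43, -3.49 and -2.71), each past the threshold.

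The spread of Itgav and Itga6 within groups went with a property of the whole library. For each library, a GC slope was computed, the slope of log2 CPM, less the mean of each gene, on the GC content of the gene. The slope was fitted over all genes of these same libraries. Genes of low GC content therefore tend to fall as it rises, and those of high GC content to rise. The permutation tests below are against no relation at all. Members were not compared with other genes of like GC content. Over the 18 tumors, as deviations from the group means, Itgav fell as the slope rose (Pearson r = -0.90, Spearman rho = -0.86), with permutation p of 6e-05 and 0.00016 within groups and adjusted p of 0.0012 and 0.0016 over 20 relations. Without the 2 libraries farthest from the median slope, r was -0.86. Itga6 did likewise (r = -0.79 and rho = -0.80, permutation p = 0.00052 and 0.00063, adjusted p = 0.00315 for both, r = -0.71 without those 2). The D2.1 tumor with the highest Itga6 (SCID-beige, replicate 3) had a slope of -0.024 log2 units per percent GC, within a range of -0.0293 to 0.0307 over tumors. In culture, the slopes of the lines did not overlap (-0.0200 to -0.00193 in D2A1 and 0.00708 to 0.010 in D2.1 cells), so that slope and line cannot be told apart there.

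Itga1 followed with r = -0.67 and rho = -0.62 (permutation p = 0.00717 and 0.0138, adjusted p = 0.0287 and 0.0418, r = -0.62 without the 2 farthest). Itgb5 went the other way, with r = 0.61 and rho = 0.55 (permutation p = 0.0146 and 0.0305, adjusted p = 0.0418 and 0.0555, r = 0.54 without the 2 farthest). For the remaining 6 members, the permutation test gave adjusted p of at least 0.0553. The GC content of the transcripts themselves was 43.5% for Itgav, 42.8% for Itga1 and 48.9% for Itga6, and 57.0% for Itgb5, 57.9% for Itga3 and 60.0% for Itgb4. With the slope as a covariate, the differences that passed between tumors of the lines, in Itga3, Itgb1 and Itgb5 in both hosts, in Itga5 in BALB/c and in Itga6, Itgb3 and Itgb4 in SCID-beige mice, still passed.

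**Figure D4:**
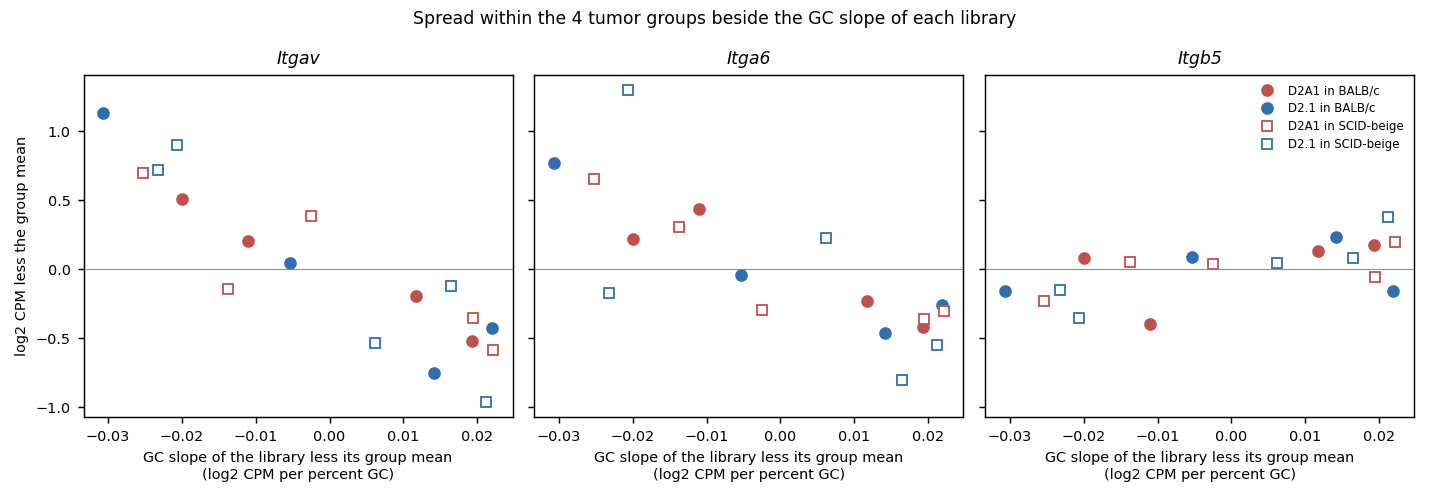
Log2 CPM of Itgav, Itga6 and Itgb5 in the 18 tumors, less the group mean (y axis), against the GC slope of each library, less the group mean (x axis), with D2A1 in red and D2.1 in blue, filled circles for BALB/c and open squares for SCID-beige mice. Itgav falls along the axis (r = -0.90), Itga6 falls with 1 D2.1 tumor high above the rest, and Itgb5 rises.

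Genes whose deviations from the group means over the 18 tumors were most like a member were named as a description, by Pearson's r of log2 CPM. For the laminin receptors these were Gprc5a (0.80) and Slc20a2 (0.77) for Itga3, E2f8 (0.91) and Ppip5k2 (0.91) for Itga6 and Fmnl1 (0.75) and H2-Q1 (0.71) for Itgb4. For the collagen receptors they were Fyco1 (0.91) and Ccn4 (0.91) for Itga1 and Plxna3 (0.87) and Brpf3 (0.85) for Itga2. Itga5 was most like Sbno2 (0.81) and Ap4b1 (0.81), Itgav most like B230219D22Rik (0.98) and Ythdf3 (0.98) and Itgb1 most like Cab39 (0.93) and Kdm5b (0.92). The closest to Itgb3 were Hk2 (0.87) and Pcdh17 (0.87), and to Itgb5 Pcyox1l (0.87) and Slc38a10 (0.87). The tumors share their depth and base composition in such values, and the highest of them belong to Itgav, the member that went most closely with the GC slope. Among the members themselves, the pair with the highest r was Itga6 and Itgav (0.71), followed by Itga2 and Itgav (0.66).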

How the data were processed

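RNA from 6 cultures and 18 individual tumors was sequenced by the submitters, whose processing notes name STAR and mm10. Versions, annotation, counter and strand setting are not given in the sources used here. The deposited tables hold raw read counts per gene and FPKM, made by the authors separately for cells and tumors. Symbols, positions and GC content came from GENCODE M21 (GRCm38). Groups came from the sample labels. Replicates differed by more than sampling noise (chi-square over its degrees of freedom, 4.96 to 117 for 38 pairs).

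Counts were tested with edgeR 4.0.16 in R 4.3.3 (TMM, filterByExpr, robust quasi-likelihood F test, Benjamini-Hochberg adjustment over all genes tested, threshold 0.05), with a prior count of 2 for log2 CPM. Each of the 5 comparisons within a table was fitted on its own libraries, and the change from culture on both tables together. DESeq2 1.42.0, its size factors, no filter, a filter at 10 counts, the GC slope, a replicate block, one fit of all tumors and leaving out each library were alternatives. The fits were tested on simulated data. Main fits had no replicate block. For the block alternative, replicate numbers were read as pairing the lines only in culture and in BALB/c mice, from correlations in these same data. Deviations of same-numbered libraries correlated by 0.184 to 0.491 in culture, 0.100 to 0.491 in BALB/c and -0.161 to 0.344 in SCID-beige mice. In BALB/c mice, same-numbered tumors of the lines also had the same order of GC slope. Whether that order gave the correlations was not tested. No label states that these libraries were paired. Shares were compared by exact permutation in Python 3.11.15 with scipy 1.17.1. The GC relations used 100000 permutations within groups.

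The members were given by symbol. Of each of the 8 pathway and 9 marker lists, up to 3 genes with the highest mean FPKM were eligible to be named, and for each member the 2 protein-coding genes most like it. The members and lists were chosen with earlier results of these data known. Leaving out both tumors with skin or milk transcripts, and shares with the gene lengths of the other table, were chosen after seeing the data.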

Additional observations from a re-analysis of the deposited data

Results flagged for a closer look

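The line difference of 7 members differed between tumors and culture by the test of that difference (edgeR's quasi-likelihood test with Benjamini-Hochberg adjustment). In SCID-beige tumors the log2 change was -4.12 for Itga2, -1.89 for Itga3, -1.42 for Itga5, 2.79 for Itga6, -4.52 for Itgb3, -1.93 for Itgb4 and -2.52 for Itgb5. In BALB/c tumors it was -4.10 for Itga2, -2.10 for Itga3, -1.14 for Itga5, 1.45 for Itga6, -3.72 for Itgb3, -2.52 for Itgb4 and -2.17 for Itgb5. Both sets share the 6 cultures, and tumors hold host cells that cultures lack, so that a change in the tumor cells and a change in the mixture of cells cannot be told apart. No library stood outside its group by Dixon's criterion in 40 groups tested (10 members in 4 groups of tumors), where chance alone would mark about 1 in 20.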

How the results depend on the processing

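Over the 10 members and all comparisons, except Itga2 in culture, of 514 log2 fold changes refitted under alternatives other than leaving out a library, 470 kept their direction and their side of the threshold, and of 894 with a library left out 832 did. The cause of the others was not tested. Shares were refitted only for the 18 at the smallest p. Of the FPKM results, 57 stayed the same and 3 moved under alternatives other than leaving out a library. With a library left out, 240 FPKM results stayed the same. None of the differences that turned had passed the threshold. With the GC slope, culture gave 0.14 for Itga1 and 0.10 for Itgb1, BALB/c tumors 0.31 for Itga6 and 0.19 for Itgav, and SCID-beige tumors -0.038 for Itgav. With the replicate block and GC slope together, a fit with few more libraries than terms, BALB/c tumors gave -0.22 for Itga1, 0.16 for Itga2, 0.997 for Itga6 and 0.77 for Itgav. Without both tumors with skin or milk transcripts, BALB/c tumors gave 0.20 for Itga6 and 0.11 for Itgav, and Itgav changed from culture by 0.052. With 1 library left out, values that crossed 0 ranged in culture from -0.37 to 0.038 for Itga1 and from -0.26 to 0.30 for Itgav, in BALB/c tumors from -0.063 to 0.25 for Itga1 and from -0.39 to 0.098 for Itga6, and in SCID-beige tumors from -0.021 to 0.44 for Itgav, whose change from culture ranged from -0.079 to 0.50 in SCID-beige and from -0.81 to 0.031 in BALB/c tumors. Between hosts in D2.1 tumors, values that crossed 0 with a library left out ranged from -0.29 to 0.049 for Itga2, -0.24 to 0.16 for Itga3, -0.12 to 0.58 for Itgb3 and -0.0034 to 0.19 for Itgb5, and without both tumors with skin or milk transcripts the values were 0.23 for Itga2, 0.21 for Itga3, 0.029 for Itgav, -0.17 for Itgb3 and -0.084 for Itgb5. In D2A1 tumors they ranged from -0.26 to 0.11 for Itga1, -0.38 to 0.090 for Itga2, -0.052 to 0.34 for Itgav and -0.079 to 0.23 for Itgb4, and the replicate block gave 0.077 for Itga1. In the interaction they ranged from -0.23 to 0.28 for Itga2 and -0.014 to 0.10 for Itgb1. There Itga2, at -0.0002, turned to 0.072 with DESeq2, 0.071 with its size factors, 0.016 with no filter and 0.00061 with a filter at 10 counts, and without both tumors with skin or milk transcripts Itga2 had 0.29, Itga3 0.031 and Itgb1 -0.029. The Itga1 share in BALB/c tumors turned to -0.0561 percentage points with all measured integrin chains in the denominator.

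The number of all genes past the threshold moved from 5602 to 2876 in culture with the GC slope, and in BALB/c tumors from 4868 to 538, and of members from 4 to 2, with the replicate block and GC slope. Between hosts it moved in D2.1 tumors from 133 to 461 with DESeq2, 275 with no count filter, 14 with the replicate block, 261 with one fit of all tumors, 11 without both tumors with skin or milk transcripts and 26 to 314 with 1 library left out. In D2A1 tumors it moved from 170 to 569 with DESeq2 (members from 0 to 1), 0 with the replicate block and 27 to 172 with 1 library left out, the moved ones running from 27 to 111. The interaction moved from 3 to 105 with DESeq2, 6 with DESeq2 size factors, 7 with no count filter, 0 without both tumors with skin or milk transcripts and 0 to 12 with 1 library left out. Replicate numbers were not taken to pair the hosts or the SCID-beige tumors. Main fits had no block. Where numbers were read as pairs, the block alone changed the edgeR call of Itgb1 in culture (adjusted p = 0.0181) and of Itgb3 in BALB/c tumors (adjusted p = 0.0156). It changed that of no other member there. The same block raised the number of all genes past the threshold from 5602 to 7539 of 12489 in culture. In BALB/c tumors it raised that number from 4868 to 7116 of 14953.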
